A study of Rattus norvegicus with 12 samples.

Results

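Enteroendocrine hormone genes were followed through mucosal scrapes of 2 segments of the small intestine, the jejunum and the duodenum, in Belgrade rats. The genes were the hormone genes Nts, Pyy, Gcg, Ghrl, Sct, Sst, Cck and Gip, the granule protein gene Chga and the serotonin enzyme gene Tph1. A probe set was taken as a measure of a gene where the platform annotation gave that gene alone. By this rule 9 of the 10 genes had 1 probe set each, among 31099 probe sets on the array. No probe set in the annotation used here carried Tph1, which was not analysed here. Each probe set is identified at the first values of its gene.

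The 4 groups were b/b jejunum, +/b jejunum, b/b duodenum and +/b duodenum, with 3 Affymetrix arrays each. All rats carried the Belgrade allele (b) of Slc11a2, which encodes the iron importer DMT1. Homozygous b/b rats are known to take up iron poorly and to be anaemic, and the heterozygous +/b rats were the comparison, so no group was free of the allele. Each array held RNA from a group of rats, and each of the 6 groups of rats supplied both tissues. The p-values of the reported fit measure the spread between groups of rats within a genotype and tissue. That fit leaves out the pairing of the tissues. Its segment p-values therefore do not measure the spread of the segment difference within groups of rats. The labels give no age, sex or diet. A scrape holds the whole mucosa, so fewer endocrine cells and less RNA per cell cannot be told apart.

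Enteroendocrine cells are scattered, rare cells of the gut epithelium that sense the contents of the lumen and release peptide hormones or serotonin at their base. They arise from crypt progenitors through the transcription factor Neurog3. Their hormones are not evenly spread: secretin, gastric inhibitory polypeptide and cholecystokinin are known chiefly from the upper small intestine, whereas neurotensin, peptide YY and the glucagon-like peptides are known chiefly from more distal gut.

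Signals are the deposited linear values after scaling every array to a 2% trimmed mean of 500, and have no absolute unit. Of the 12 arrays, 10 had been deposited at that scale, and +/b duodenum replicates 2 and 3 were multiplied by 9.69 and 3.95. Changes are on the log2(signal + 16) scale, with the standard error (SE) of a limma fit across all 17694 probe sets that averaged at least 100. The 9 genes all passed this minimum, Pyy by its jejunal signal alone and with a mean of 101.1, so its passing is no sign of expression in the duodenum. A call means a Benjamini-Hochberg adjusted p under 0.05 in limma over all of these probe sets.

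Enterocyte markers (10 genes) summed to at least 188731 and goblet cell markers (9 genes) to at least 125874 on every array. Markers of neighbouring organs were high on some duodenal arrays. Markers of the exocrine pancreas (18 genes) summed to 212220 in +/b duodenum replicate 2, to 14016 on the third b/b duodenum array, and to between 2165 and 8649 on the other 10 arrays. Reg1a of this list did not follow it and made up much of the lower duodenal sums. It gave 6308, 6318 and 4010 in b/b duodenum replicates 1 to 3. In +/b duodenum replicates 1 to 3 it gave 3663, 6011 and 7242. Markers of pancreatic islets (6 genes) summed to 6565 in +/b duodenum replicate 2, against 400.6 to 1923 elsewhere. Markers of the stomach (9 genes) summed to between 1158 and 4287 in b/b duodenum, 332.7 to 992 in +/b duodenum and 407.1 to 496 in the jejunum. Islets also make glucagon and somatostatin, and the stomach makes ghrelin and somatostatin, so these values stand beside the results of Gcg, Ghrl and Sst. No marker of the 3 lists was at 0 on any array, and 17, 4 and 4 of them reached the minimum mean signal of 100.

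**Figure D1:**
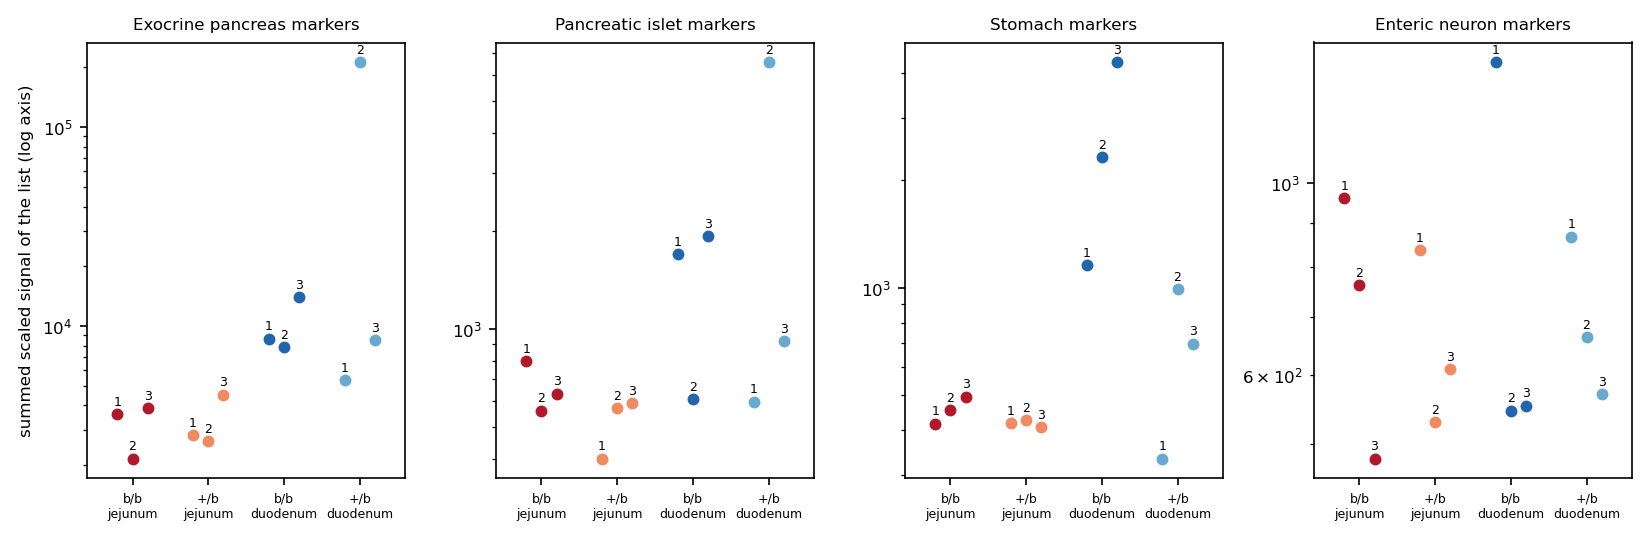
Summed scaled signal (log axis) of markers of the exocrine pancreas, pancreatic islets, stomach and enteric neurons on each array, with the replicate number above each point. The +/b duodenum replicate 2 array stands far above the others for both pancreas lists, at 212220 and 6565.

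The comparison of the segments asked how the hormone genes are spread along the upper small intestine. Averaged over both genotypes (6 arrays against 6), Nts, Pyy and Gcg were higher in the jejunum than in the duodenum and Ghrl and Sct were lower. These were 5 calls among the 9 genes, 3 higher and 2 lower. Of all probe sets 1.4% were called in this contrast, 0.61% as higher and 0.786% as lower. Pyy entered the test by its jejunal signal alone, so its call is no independent support. With no minimum signal the genes again had 5 calls, 3 higher and 2 lower. All 5 calls held whichever of the 12 arrays was dropped from the fit. Centring the arrays on their medians left 80 probe sets higher and 181 lower, against 108 higher and 139 lower here.

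Nts encodes neurotensin, a peptide of N cells that slows gastric emptying and aids fat absorption. Its probe set 1380967_at gave 4250, 8067 and 4827 in b/b jejunum, against 406.1, 541.8 and 179.4 in b/b duodenum. The +/b values of Nts were 5259, 6589 and 3061 in the jejunum, against 282.9, 1883 and 481.5 in the duodenum. Every jejunal array lay above every duodenal one, and +/b duodenum replicate 2 was the highest of the duodenum. The difference was 10.5-fold (log2 change 3.40 ± 0.40 SE, limma adjusted p = 0.000467).

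Pyy encodes peptide YY, an L cell peptide that restrains appetite and motility. Its probe set 1393907_at gave 98.5, 358.1 and 230 in b/b jejunum, against 13.6, 7.75 and 6.36 in b/b duodenum. In +/b rats it gave 211.5, 159.5 and 81.6 in the jejunum, against 9, 30.3 and 6.63 in the duodenum. The segments did not overlap, and most duodenal values were smaller than the 16 added before taking logarithms. The change of 2.77 ± 0.45 (limma adjusted p = 0.00599) therefore depended on that addition, at 3.88 with 1 added and 1.65 with 64, both still called.

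Gcg encodes proglucagon, which L cells cut into the glucagon-like peptides. Its probe set 1369888_at gave 413.9, 1174 and 1155 in b/b jejunum, against 64.6, 109.5 and 158.3 in b/b duodenum. For Gcg the +/b arrays read 981.5, 1440 and 1346 in the jejunum, against 116.1, 801.1 and 194.6 in the duodenum. The change was 2.48 ± 0.40 (limma adjusted p = 0.00562), and the segments overlapped only because +/b duodenum replicate 2 exceeded b/b jejunum replicate 1. That duodenal array also had the islet transcripts Ins1 at 2960, Ins2 at 2608 and Iapp at 213.7, against at most 820, 503.5 and 17.4 on the other 11. The rest of the islet list marked it less or not at all. Ttr was 562 there against at most 439.3 elsewhere, Ppy 186.9 against up to 194.1, and Mafa 34.8 against up to 329. Without +/b duodenum replicate 2 and b/b duodenum replicate 3, the other array rich in pancreas transcripts, the change of Gcg was 2.99 ± 0.30 (limma adjusted p = 0.000504).

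Ghrl encodes ghrelin, a hunger peptide best known from the stomach. Its probe set 1387254_at gave 369.2, 98.1 and 609.4 in b/b jejunum, against 1182, 1473 and 1727 in b/b duodenum. Heterozygous rats had Ghrl at 362.6, 367.3 and 713.8 in the jejunum, against 1462, 1003 and 1661 in the duodenum. The jejunum was lower without overlap, with a change of -1.90 ± 0.34 (limma adjusted p = 0.00999), or 3.73-fold. The 4 tested stomach markers were all lower in the jejunum, with a median change of -2.74 in b/b and -0.61 in +/b rats. Gkn1 (gastrokine) was called lower in b/b rats (-2.94 ± 0.59, limma adjusted p = 0.033). In the jejunum Gkn1, Gkn2 and Atp4b read at most 94.4, 26.6 and 100.3, so they passed the minimum by their duodenal signal. Neither their direction nor the Gkn1 call is therefore independent support. Cblif, which was not tested, ran the other way in +/b rats. It gave 18.9, 84.4 and 49.7 in +/b jejunum, against 14.4, 16.2 and 17.6 in +/b duodenum. Not every stomach marker was raised in b/b duodenum. Atp4a gave 21.4, 132.5 and 52.6 there, against 35, 199.8 and 104.5 in +/b duodenum. Pgc gave 20.6, 6.86 and 21.2, against 7.45, 27.3 and 52.4. Stomach marker sums were 1158, 2326 and 4287 in b/b duodenum replicates 1 to 3, with Ghrl at 1182, 1473 and 1727. In +/b duodenum replicates 1 to 3 the sums were 332.7, 992 and 698, with Ghrl at 1462, 1003 and 1661. The part of stomach tissue in the Ghrl difference was not tested. The Ghrl call was lost without the 2 arrays that had been deposited unscaled (-1.96 ± 0.43, limma adjusted p = 0.0657).

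Sct encodes secretin, an S cell peptide that drives bicarbonate secretion by the pancreas. Its probe set 1387257_at gave 870.7, 763.3 and 673.2 in b/b jejunum, against 1640, 1630 and 1533 in b/b duodenum. The +/b arrays had Sct at 840, 687.7 and 536.1 in the jejunum, against 1111, 1122 and 869.9 in the duodenum. Within each genotype the jejunum lay below the duodenum. The change was -0.82 ± 0.14 (limma adjusted p = 0.00851), or 1.77-fold lower, and turned to 0.016 on the values as deposited, where the median of all probe sets was 0.84.

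**Figure D2:**
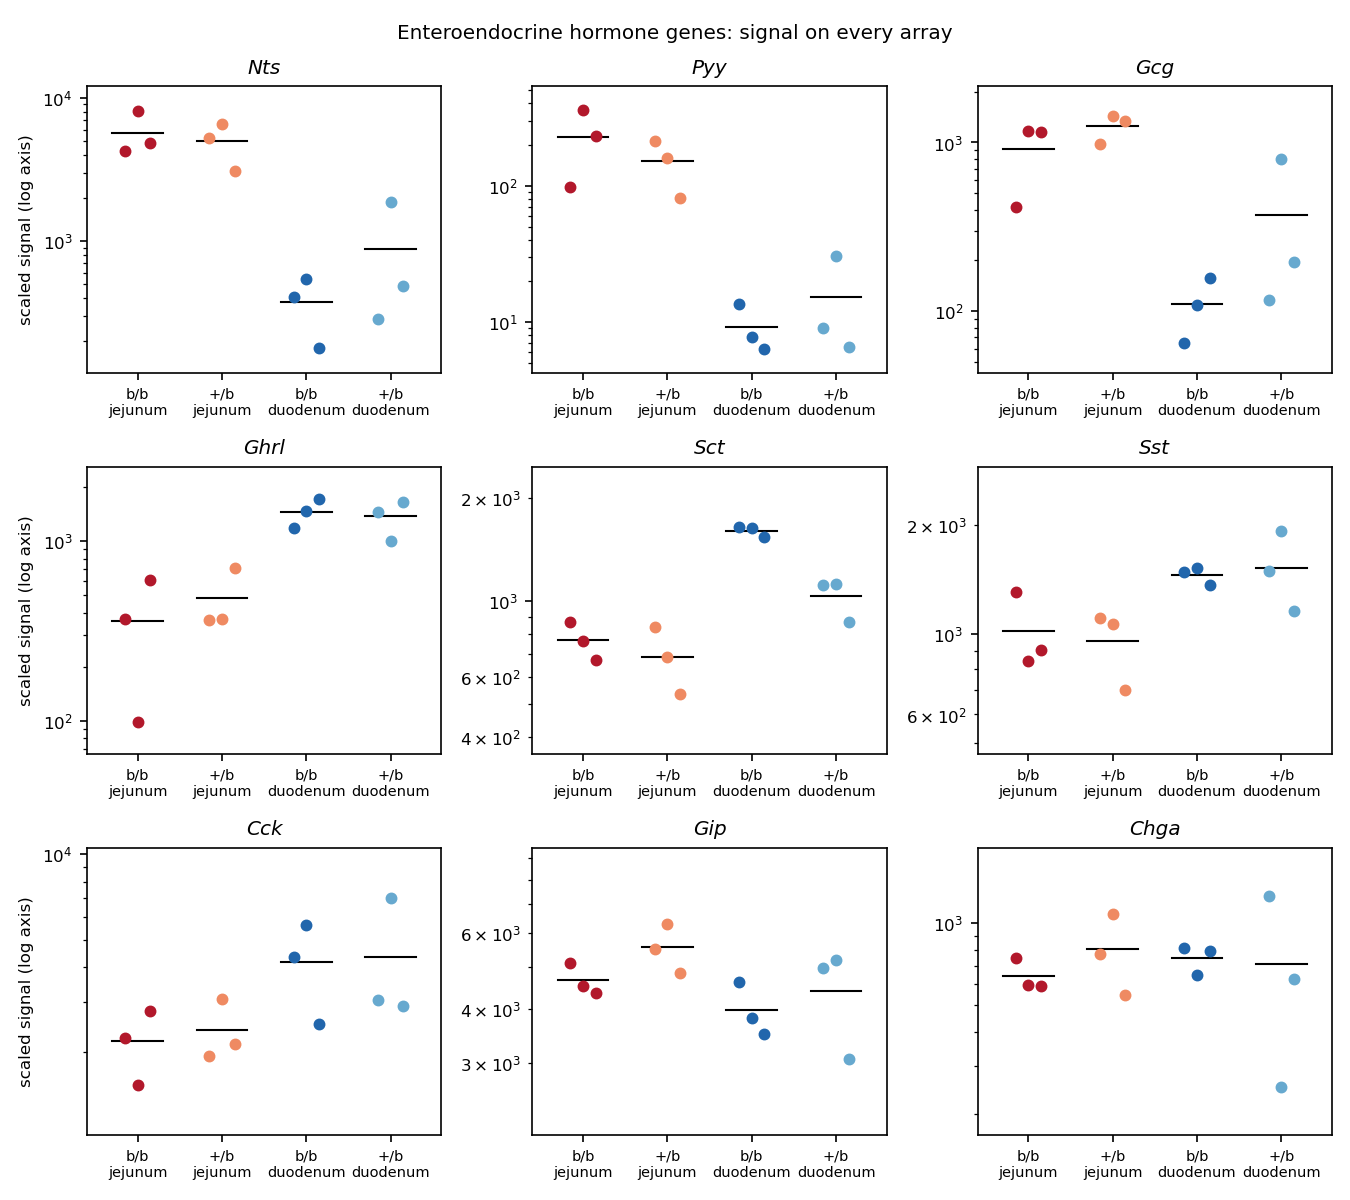
Scaled signal (log axes, a separate range for each gene) of the 9 measured genes on all 12 arrays, with points for arrays and bars for group means (n = 3). Nts and Pyy separate the jejunum from the duodenum upwards and Ghrl downwards without overlap, while Gip and Chga overlap.

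The genes that moved together between the segments, and the oppositely spread Ghrl, are shown with the 250 bases before and 50 after their start sites. These come from RefSeq on build GRCr8, where 7 of the 10 genes had an entry, and positions count from the start site. Capitals mark matches on either strand to the TATA box (TATAAA), the AP-1 site (TGANTCA), the core of the cyclic AMP response element (TGACG), the GATA site (GATAA) and a Cdx homeodomain site (TTTATNG). The Cdx site overlaps the first motif where that motif follows a C. Of 33469 such windows, 14.2%, 7.33%, 21.2%, 26.5% and 11.3% hold these motifs. The Nts window is chr7:39460839-39461138 on the minus strand, the Pyy window chr10:87562421-87562720 (minus), the Gcg window chr3:67531484-67531783 (minus) and the Ghrl window chr4:148425175-148425474 (minus).
Nts: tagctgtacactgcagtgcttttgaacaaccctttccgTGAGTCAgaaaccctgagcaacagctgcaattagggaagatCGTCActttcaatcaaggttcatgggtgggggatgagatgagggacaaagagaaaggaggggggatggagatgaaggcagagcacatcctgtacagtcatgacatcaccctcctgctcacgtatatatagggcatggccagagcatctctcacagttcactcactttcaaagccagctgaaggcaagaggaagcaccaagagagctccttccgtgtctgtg
Pyy: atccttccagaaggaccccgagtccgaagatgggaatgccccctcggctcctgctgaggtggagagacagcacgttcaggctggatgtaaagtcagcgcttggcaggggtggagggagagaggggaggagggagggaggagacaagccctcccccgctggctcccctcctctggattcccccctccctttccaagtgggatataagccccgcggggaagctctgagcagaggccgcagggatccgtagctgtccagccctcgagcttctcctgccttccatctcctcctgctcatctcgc
Gcg: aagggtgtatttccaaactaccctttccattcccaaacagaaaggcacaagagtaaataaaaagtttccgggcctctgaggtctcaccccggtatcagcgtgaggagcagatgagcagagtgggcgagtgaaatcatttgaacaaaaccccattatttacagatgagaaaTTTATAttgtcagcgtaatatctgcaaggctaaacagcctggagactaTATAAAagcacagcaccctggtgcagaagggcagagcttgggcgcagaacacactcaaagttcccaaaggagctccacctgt
Ghrl: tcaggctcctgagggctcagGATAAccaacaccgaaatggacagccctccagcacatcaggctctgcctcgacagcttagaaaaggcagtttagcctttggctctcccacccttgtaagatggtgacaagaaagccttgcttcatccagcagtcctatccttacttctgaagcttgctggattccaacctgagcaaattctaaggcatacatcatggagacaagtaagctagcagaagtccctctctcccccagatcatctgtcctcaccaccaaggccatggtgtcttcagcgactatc
The Nts window held an AP-1 site at -212 to -206 and a cyclic AMP response element core at -171 to -167. The Gcg window held a TATA box at -32 to -27 and another match, on the opposite strand, at -80 to -75, and the Ghrl window held a GATA site at -230 to -226. None of the 5 motifs had an exact match in the Pyy window. Nts, Pyy and Gcg, all higher in the jejunum, therefore had no exact match of this set in common in these windows. Near matches were not sought, so elements close to these motifs, as of the TATA box, may be shared.

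Sst encodes somatostatin, the inhibitory peptide of D cells, which is also made by neurons and islets. Its probe set 1367762_at gave 1310, 841.8 and 907.2 in b/b jejunum, against 1483, 1526 and 1365 in b/b duodenum. Somatostatin signal in +/b rats was 1110, 1070 and 699.6 in the jejunum, against 1492, 1934 and 1161 in the duodenum. The jejunum was lower in each of the 6 groups of rats, by 0.18 to 0.85 on the log2 scale. The mean change of -0.60 ± 0.17 did not pass (limma adjusted p = 0.129), but did with the group of rats as a block (± 0.12, limma adjusted p = 0.019).

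Cck encodes cholecystokinin, a peptide of I cells. Its probe set 1387032_at gave 2242, 1531 and 2794 in b/b jejunum, against 4353, 5618 and 2509 in b/b duodenum. The +/b values of Cck were 1939, 3083 and 2142 in the jejunum, against 3048, 7017 and 2910 in the duodenum. The segments overlapped, and the mean change of -0.82 ± 0.26 did not pass (limma adjusted p = 0.172). With the group of rats as a fixed block it did (limma adjusted p = 0.0472), and with a random block it did not (limma adjusted p = 0.0511).

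Gip encodes gastric inhibitory polypeptide, the K cell incretin. Its probe set 1369898_a_at gave 5106, 4517 and 4355 in b/b jejunum, against 4615, 3816 and 3490 in b/b duodenum. Among +/b arrays Gip read 5524, 6314 and 4841 in the jejunum, against 4975, 5205 and 3052 in the duodenum. It was higher in the jejunum of each of the 6 groups of rats, by 0.15 to 0.66, but overlapped between segments (0.30 ± 0.15, limma adjusted p = 0.458).

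Chga encodes chromogranin A, a protein of the secretory granules of most endocrine cells. Its probe set 1387235_at gave 744.6, 596.6 and 589.5 in b/b jejunum, against 809.6, 649.3 and 790.6 in b/b duodenum. Heterozygous rats had Chga at 775.6, 1087 and 546.5 in the jejunum, against 1260, 251.1 and 623.1 in the duodenum. The difference was 0.09 ± 0.30 (interval -0.55 to 0.72, limma adjusted p = 0.94).

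Over all 6 jejunal and 6 duodenal arrays 3 of the 9 genes did not overlap, Nts and Pyy as higher and Ghrl as lower, against 1.74% of all probe sets (0.882% higher, 0.853% lower). Within the groups of rats, 4 of the 9 genes were higher in the jejunum in all 6 pairs (Nts, Pyy, Gcg and Gip) and 3 were lower in all 6 (Ghrl, Sct and Sst). Of all probe sets 7.73% were higher and 4.85% lower in all 6. Pyy is in both counts, although it passed the minimum signal by its jejunal signal alone. Nts differed by 1.80 to 4.63, Pyy by 1.92 to 3.98 and Gcg by 0.83 to 3.25. The smallest differences of these 3 genes all belonged to the second +/b group of rats, whose duodenal array carried the pancreas transcripts.

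**Figure D3:**
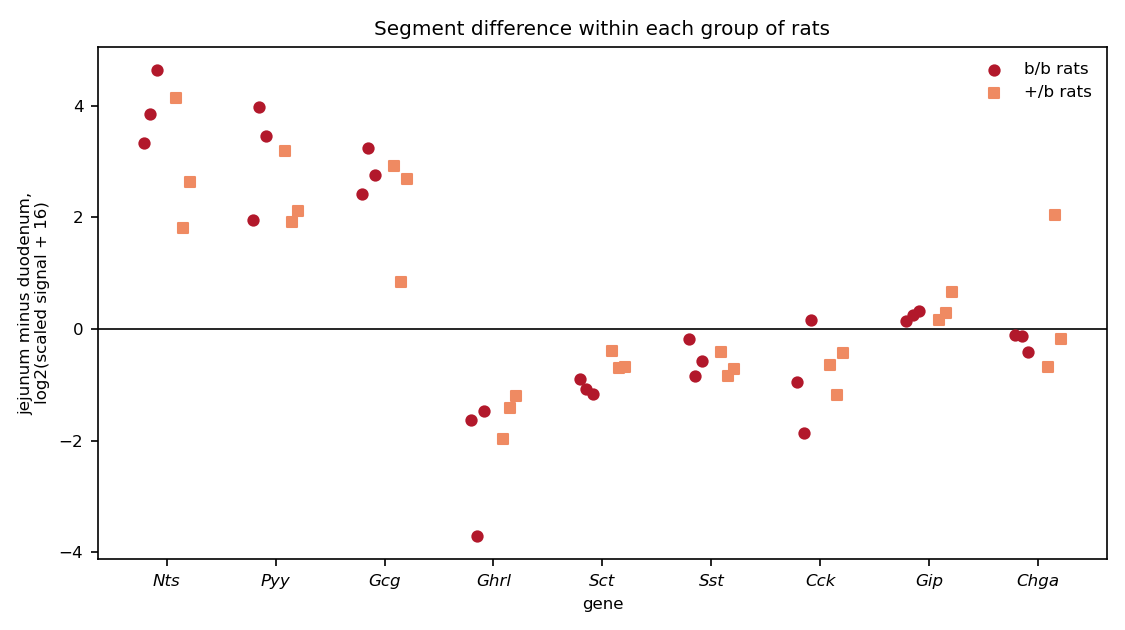
Jejunum minus duodenum on the log2(scaled signal + 16) scale for each gene in each of the 6 groups of rats, with circles for b/b and squares for +/b rats. Nts, Pyy, Gcg and Gip lie above 0 and Ghrl, Sct and Sst below 0 in all 6.

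Taken by genotype, the same 5 genes were called in b/b rats and 0 in +/b rats. In b/b rats 0.763% of all probe sets were called, 0.345% as higher and 0.418% as lower, and in +/b rats 0.0565%. Nts differed 15.4-fold in b/b rats (3.94 ± 0.56, limma adjusted p = 0.00474), and remained called in each of the 6 fits without 1 array. For Pyy the b/b change was 3.13 ± 0.63 (limma adjusted p = 0.0347), for Gcg 2.80 ± 0.56 (0.0335 in limma, adjusted), for Ghrl -2.27 ± 0.48 (0.0415 in limma, adjusted) and for Sct -1.05 ± 0.20 (0.0251 in limma, adjusted). These 4 calls were fragile: Pyy and Sct kept theirs in 2 and Gcg and Ghrl in 1 of the 6 fits without 1 array. The low Ghrl of 98.1 in b/b jejunum replicate 2 weighed on its value, which was -1.57 ± 0.34 without that array (limma adjusted p = 0.109).

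In +/b rats the changes of these 5 genes ran the same way on the scaled values (on the values as deposited, Ghrl had 0.15 and Sct 1.08, where the median of all probe sets was 1.6), and 6 of the 9 genes had an unadjusted p under 0.05 in limma, against 5.36% of all probe sets. Nts had 2.86 ± 0.56 (limma adjusted p = 0.113), Pyy 2.41 ± 0.63, Gcg 2.15 ± 0.56, Ghrl -1.53 ± 0.48, Sct -0.59 ± 0.20 and Sst -0.66 ± 0.24 (limma adjusted p between 0.416 and 0.792 for these 5). With the group of rats as a block, Nts (± 0.36, limma adjusted p = 0.00475) and Gcg (± 0.35, limma adjusted p = 0.0228) passed. With a random block, which uses an estimated correlation, Nts passed (limma adjusted p = 0.0133) and Gcg did not (limma adjusted p = 0.0653). Without +/b duodenum replicate 2, Nts (3.62 ± 0.44, limma adjusted p = 0.0109) and Gcg (2.91 ± 0.45, limma adjusted p = 0.0333) passed as well. In both genotypes 6 of the 9 genes did not overlap between the segments, 3 higher and 3 lower. Of all probe sets 14.8% did not overlap in b/b rats (9.53% higher, 5.3% lower) and 10.8% in +/b rats (6.1% higher, 4.71% lower).

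The genotype comparison asked whether the hormone genes differ between b/b and +/b rats within a segment. In the jejunum 0 of the 9 genes were called by limma, with 0 at an unadjusted p under 0.05 (1.34% of all probe sets), and all 9 overlapped between the genotypes, where 7.9% of all probe sets did not. In the duodenum 0 were called, with 2 at an unadjusted p under 0.05 (6.17% of all probe sets), Sct and Gcg. Of all probe sets 0.0339% were called in the jejunum and 0.0396% in the duodenum. The median change of the 9 genes was -0.14 in the jejunum and -0.04 in the duodenum, against -0.03 and -0.05 over all probe sets tested.

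Sct was the gene whose groups stood apart in the duodenum, with 1640, 1630 and 1533 in b/b against 1111, 1122 and 869.9 in +/b rats. All 3 b/b arrays were higher (0.63 ± 0.20, interval 0.20 to 1.06, limma unadjusted p = 0.00685 and adjusted p = 0.704), which 3.18% of all probe sets also showed without overlap. The change lay between 0.51 and 0.69 over the 6 fits without 1 array. In the jejunum Sct overlapped, and its change was 0.17 ± 0.20 (interval -0.25 to 0.60).

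Gcg had the lowest change in the duodenum, -1.23 ± 0.56 (limma unadjusted p = 0.0463, adjusted p = 0.789). This rested on +/b duodenum replicate 2, and was -0.47 ± 0.45 without it. Nts had -0.87 ± 0.56 in the duodenum, -0.11 ± 0.44 without that array, and 0.33 ± 0.39 without both arrays rich in pancreas transcripts. For Gcg in the jejunum the change was -0.57 ± 0.56, with 413.9 in b/b replicate 1 against 981.5 to 1440 in +/b rats. The 95% intervals reached from -1.78 to 1.84 over the 9 genes in the jejunum and from -2.44 to 1.24 in the duodenum. These outer bounds come from different genes. The intervals of Gip were narrower, at -0.72 to 0.22 in the jejunum and -0.59 to 0.35 in the duodenum. Changes within a gene's own interval were not resolved with 3 arrays per group.

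**Figure D4:**
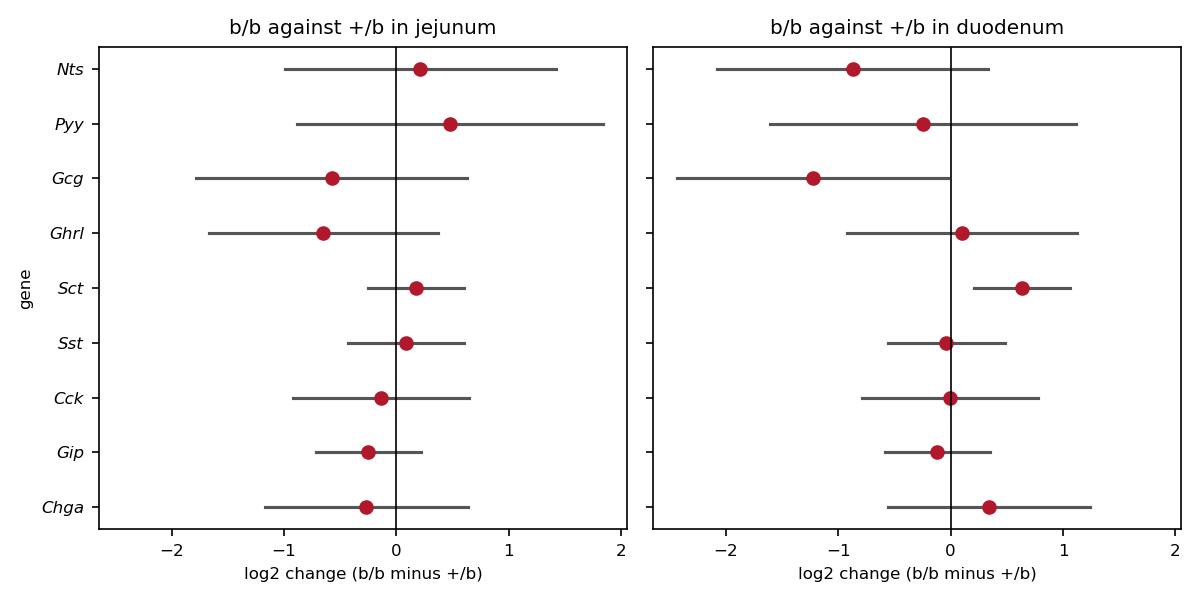
Change between b/b and +/b rats (log2, b/b minus +/b) of each gene in the jejunum and in the duodenum, with 95% intervals of the limma fit. All intervals include 0 except those of Sct and, by a margin of 0.02, Gcg in the duodenum, and neither passed adjustment over all probe sets.

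The interaction, which asks whether the genotype effect differs between segments, called 0 of the 9 genes in limma, with 0 at an unadjusted p under 0.05, and 0% of all probe sets (1.73% at an unadjusted p under 0.05). The 9 differences, jejunum minus duodenum, ran from -0.75 for Ghrl to 1.09 for Nts, with standard errors of 0.28 to 0.90. Nts had 1.09 ± 0.79 and Sct -0.46 ± 0.28. The segment changes of the 5 called genes, all of larger size in b/b than in +/b rats, were therefore not shown to differ between the genotypes.

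The +/b duodenum replicate 2 array was the highest of the 6 duodenal arrays for 6 of the 9 genes (Nts, Pyy, Gcg, Sst, Cck and Gip) and the lowest for 2 (Ghrl and Chga). It was multiplied by 9.69 in scaling and carried both pancreas signatures. The part of either in these values was not tested. No other duodenal array was the highest for more than 1 gene. How often each array ranked highest or lowest over all probe sets was not determined. These counts are therefore not shown to be particular to the hormone genes.

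Other genes of the endocrine pathway were taken from lists chosen with earlier results of these data known. Of 25 listed enteroendocrine transcription factors, 18 had a probe set and 8 reached the minimum signal. In the mean segment contrast 1 was called higher and 1 lower in the jejunum, where 0.61% of all probe sets were called higher and 0.786% lower, and the median change was 0.07, the same as over all probe sets (0.07). The lower one was Pdx1, a homeodomain factor of duodenum and pancreas (-4.00 ± 0.38, limma adjusted p = 9.30e-05). The higher one was Sox4, a factor of endocrine progenitors (0.96 ± 0.21, limma adjusted p = 0.0397). Pdx1 read 15.1 to 126.6 in the jejunum, mostly under the minimum mean of 100, against 538.8 to 2707 in the duodenum. It therefore passed the minimum by its duodenal signal, and its call is no independent support. With jejunal values this low, the size of its change also depends on the value added before taking logarithms.

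Of 25 genes of granins, prohormone processing and granule release, 21 had a probe set, 10 were tested and 0 were called in any of the 6 contrasts. Their median segment change was 0.18. Cpe, a carboxypeptidase that trims prohormones, had 0.71 ± 0.16 (limma adjusted p = 0.0501). Pam, which amidates peptide ends, had 0.44 ± 0.12 without overlap between the segments (limma adjusted p = 0.0888), and Chgb, another granin, had -0.28 ± 0.14.

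Of 21 other gut peptides 17 had a probe set and 8 were tested, of 10 genes of serotonin handling 9 and 7, of 26 hormone receptors and peptidases 25 and 8, and of 23 nutrient sensors and channels 10 and 5. In all 6 contrasts 0 of these were called. The median segment changes were -0.19, -0.05, -0.05 and 0.10. Guca2a (guanylin), a peptide that activates guanylate cyclase in the gut lining, had 0.42 ± 0.30. Ddc, which completes serotonin synthesis, had -0.50 ± 0.22, and Slc6a4, the serotonin transporter of enterocytes, had -0.05 ± 0.15. Dpp4, the peptidase that inactivates glucagon-like peptide and gastric inhibitory polypeptide, had -0.02 ± 0.21. Markers of enteric neurons, a further source of Sst, Cck and Nts, had 3 of 11 probe sets tested and sums of 481.2 to 960.2 in the jejunum and 546.5 to 1377 in the duodenum.

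For the 5 called genes, the probe sets of other genes with the most similar course over the 12 arrays were listed by Pearson correlation of log2 values. These describe the arrays and share their segment difference. Osr2 (0.97), Stk3 (0.96) and Cmahp (0.95) were nearest to Nts, and Tmigd1 (0.99), Stk3 (0.97) and the phospholipase gene Plb1 (0.96) to Pyy. Abcb1a (0.95), an efflux pump, Prelp (0.94) and Pdzph1 (0.93) were nearest to Gcg. Ghrl ran with the transcription factor gene Onecut2 (0.99), the fatty acid elongase gene Elovl6 (0.96) and Prdm16 (0.96), and Sct with Ifngr1 (0.95), the carbonic anhydrase gene Car2 (0.94) and Mkrn1 (0.93).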

How the data were processed

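RNA from mucosal scrapes was hybridised to 1 Affymetrix array per group of rats and tissue. The deposited values are linear signal per probe set, and MAS5 is named for 10 of the 12 arrays per the submitters' processing notes. No source used here gives its version.

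Each array was multiplied to a 2% trimmed mean of 500. After removal of 57 controls, the 17694 probe sets with a mean of at least 100 were tested on log2(signal + 16), with 4 group means in limma 3.58.1 (R 4.3.3), eBayes with an intensity trend, two-sided, with Benjamini-Hochberg adjustment. The fit was tested on simulated data. Arrays give no counts, and the number of arrays limits the precision.

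Per the labels' design text each group of rats gave both tissues. That arrays of equal number share a group of rats was taken from the titles, and their deviations from the group means correlated at 0.16 to 0.38 in all 6 pairs. Arrays of equal number from different rats, b/b with +/b, correlated at 0.12 to 0.42 in the jejunum and -0.059 to 0.16 in the duodenum, so the correlation does not single out shared rats. The reported fit left this pairing out, and the group of rats was a block in an alternative.

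The genes, lists and tests were chosen with earlier results of these data known. Named were all 9 measured genes, members of the 6 pathway lists called in any contrast or taken from their brightest 4, and the 3 most similar probe sets of each called gene. Genes of the marker and pathway lists were represented by their brightest probe set. The markers Reg1a, Ins1, Ins2, Iapp, Ttr, Ppy, Mafa, Gkn1, Gkn2, Atp4a, Atp4b, Cblif and Pgc were named after their values were seen. Alternatives covered the pseudocount, the filter, the scaling, blocks, array weights and left-out arrays.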

Additional observations from a re-analysis of the deposited data

How the results depend on the processing

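The 9 genes were recomputed under each alternative, with the interaction counted here for the 5 called genes only. This gave 951 values: 845 kept their sign and their side of the threshold, 28 lost and 18 gained a call, and 60 turned sign. Sign changes of the interaction in Sst, Cck, Gip and Chga are therefore not included. Of the 9 genes, the segment contrast called 5 in b/b rats, 0 in +/b rats and 5 in the mean. In b/b rats the number was 3 with a pseudocount of 1, 3 on the values as deposited and 2 without both arrays rich in pancreas transcripts. It was 4 with quantile normalization, 4 with a minimum mean of 200, and 1 to 4 without 1 array. In +/b rats it was 5 on the values as deposited, 2 with the replicate block (group of rats), 1 with a random block, 1 with array weights, 1 without both arrays deposited unscaled, 2 without both arrays rich in pancreas transcripts, and 0 to 2 without 1 array. In the mean it was 3 on the values as deposited, 4 without both arrays deposited unscaled and 4 with a minimum mean of 200. It was 6 with a random block, 6 with array weights and 5 in every fit without 1 array. With the replicate block (group of rats) it was 7, and that block changed no other call of these genes. Over all probe sets the replicate block called 86 against 10 in +/b, 431 against 135 in b/b and 795 against 247 in the mean, and the values as deposited called 8673 in +/b. Leaving out 1 array gave 2 to 21 in +/b, 33 to 235 in b/b and 139 to 354 in the mean. Without rescaling the median of all probe sets was 1.6 in +/b, 0.84 in the mean, 1.51 for genotype in the duodenum and -1.55 for the interaction. Pyy was not tested with a minimum mean of 200. Of the changes below, the reported fit called that of Sct in the mean and no other. With median centring, the sign turned in the genotype in the duodenum contrast, Sst 0.011, Cck 0.043. In the mean segment contrast, Chga -0.0073. On the values as deposited, the sign turned in the genotype in the duodenum contrast, Nts 0.80, Pyy 0.30, Gcg 0.35, Sst 1.66, Cck 1.73, Gip 1.61. In the segment in +/b contrast, Ghrl 0.15, Sct 1.08, Sst 1.04, Cck 0.98. In the mean segment contrast, Sct 0.016, Sst 0.25, Cck 0.046. In the interaction contrast, Nts -0.59, Gcg -0.93. With array weights, the sign turned in the genotype in the duodenum contrast, Sst 0.0018, Cck 0.25. In the genotype in the jejunum contrast, Sst -0.049. Without both arrays deposited unscaled, the sign turned in the genotype in the duodenum contrast, Nts 0.26, Pyy 0.0023, Ghrl -0.018, Cck 0.37, Chga -0.74. In the segment in +/b contrast, Chga -0.69. In the mean segment contrast, Chga -0.46. In the interaction contrast, Nts -0.049, Gcg -0.45. Without both arrays rich in pancreas transcripts, the sign turned in the genotype in the duodenum contrast, Nts 0.33, Pyy 0.16, Ghrl -0.24, Sst 0.19, Cck 0.73, Gip 0.11, Chga -0.29. In the segment in +/b contrast, Chga -0.20. In the mean segment contrast, Chga -0.19. In the interaction contrast, Nts -0.12. Leaving out 1 array at a time gave changes of both signs in the genotype in the duodenum contrast, Pyy -0.44 to 0.074, Ghrl -0.11 to 0.25, Sst -0.22 to 0.14, Cck -0.26 to 0.40, Gip -0.37 to 0.018, Chga -0.24 to 0.88. In the genotype in the jejunum contrast, Cck -0.33 to 0.097, Nts -0.10 to 0.45, Sst -0.12 to 0.21, Ghrl -1.17 to 0.053. In the segment in +/b contrast, Chga -0.20 to 0.93. In the mean segment contrast, Chga -0.21 to 0.36. In the interaction contrast, Gcg -0.11 to 1.2. The cause of these changes was not tested. Values near background, as of Pyy in the duodenum, have no reliable size.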
